A study of Mus musculus with 57 samples.

Results

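Trimethylation of lysine 4 of histone H3 (H3K4me3) is the mark of active and poised promoters, where it gathers around the transcription start site (TSS), and CpG-rich promoters carry it most strongly. Acetylation of lysine 27 (H3K27ac) lies on active promoters and enhancers, and trimethylation of the same residue (H3K27me3) is laid down by Polycomb complexes at silenced genes. H3K4me3 away from any annotated start is known from unannotated or alternative promoters and from some strongly active enhancers.

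The sites described here are H3K4me3 regions far from annotated promoters. The H3K4me3 peaks of all 19 libraries (9 from brain cortex, 10 from gastrocnemius, a calf muscle) were merged on chromosomes 1 to 19 of mm10, which gave 36344 regions. A region was kept when every library of at least 1 tissue had a peak in it, which left 19278 sites, and was counted as distal when its edges lay more than 5 kb from every TSS of a curated RefSeq transcript (NM_ or NR_). The distal sites numbered 5521, or 28.6% of the sites that met the call rule, and the other 13757 are called TSS-near below. The members were therefore chosen on H3K4me3 peaks themselves, so their number, tissue sharing and H3K4me3 level are descriptions and were not tested.

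The tissues came from 10 PSAPP mice killed at 13 months, a transgenic Alzheimer's disease model that expresses mutant human presenilin 1 and a chimeric mouse/human amyloid precursor protein with the Swedish mutation. All mice carried the transgenes and were on the same modified AIN-93 diet, so the only contrast used here is cortex against gastrocnemius, and no wild-type mice were analysed here. The study took both sexes, but the labels do not give the sex of a library, and each tissue group mixes them. The 57 libraries comprise 9 cortex and 10 gastrocnemius libraries for each of the 3 marks, and 9 mice gave both tissues. Both tissues are mixtures of cell types, and a weaker signal can mean fewer cells with the mark or less mark per cell, which cannot be told apart in bulk chromatin.

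The H3K4me3 libraries held between 9025744 and 18622389 reads in autosomal peaks, the H3K27ac libraries between 3903965 and 27042958 and the H3K27me3 libraries between 2994110 and 18236388. Cortex replicate 9 stood apart for H3K27ac with 3903965 reads, against at least 14279570 in the other 8 cortex libraries. Gastrocnemius replicate 5 had the most H3K27me3 reads, 18236388 against at most 7544243 in the other gastrocnemius libraries. All 8 cortex markers examined (among them Snap25, Gad1, Gfap and Mog) had an H3K4me3 peak within 1 kb of the TSS in every cortex library, and all 8 muscle markers (among them Acta1, Ckm, Myh4 and Casq1) had one in every gastrocnemius library. In the other tissue, 3 cortex markers were called in every gastrocnemius library and 4 in none, and 1 muscle marker was called in every cortex library and 4 in none.

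The sequences of 3 strong sites illustrate how CpG content can differ between such sites. Each is the stretch of 300 bases with the most CpG dinucleotides in a site with high H3K4me3, read from the plus strand of the RefSeq assembly GRCm38.p6, with every CG in capitals. The cortex-only stretch lies at chr8:32883946-32884245, the gastrocnemius-only stretch at chr19:30624585-30624884 and the stretch from a site called in all 19 libraries at chr8:19784854-19785153.
Nrg1 site, cortex only: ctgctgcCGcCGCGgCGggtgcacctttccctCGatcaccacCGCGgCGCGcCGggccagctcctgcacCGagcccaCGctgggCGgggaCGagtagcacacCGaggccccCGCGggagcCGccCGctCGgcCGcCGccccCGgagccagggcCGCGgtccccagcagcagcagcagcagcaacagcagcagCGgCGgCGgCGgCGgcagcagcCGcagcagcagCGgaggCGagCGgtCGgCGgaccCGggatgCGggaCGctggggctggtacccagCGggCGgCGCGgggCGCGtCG
Prkg1 site, gastrocnemius only: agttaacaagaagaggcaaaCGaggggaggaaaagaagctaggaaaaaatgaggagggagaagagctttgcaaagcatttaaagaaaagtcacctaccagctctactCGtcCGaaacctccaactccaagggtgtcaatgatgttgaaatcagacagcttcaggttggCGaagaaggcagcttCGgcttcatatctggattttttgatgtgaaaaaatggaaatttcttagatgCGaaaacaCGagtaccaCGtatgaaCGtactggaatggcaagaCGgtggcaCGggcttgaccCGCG
Gm10060 site, all 19 libraries: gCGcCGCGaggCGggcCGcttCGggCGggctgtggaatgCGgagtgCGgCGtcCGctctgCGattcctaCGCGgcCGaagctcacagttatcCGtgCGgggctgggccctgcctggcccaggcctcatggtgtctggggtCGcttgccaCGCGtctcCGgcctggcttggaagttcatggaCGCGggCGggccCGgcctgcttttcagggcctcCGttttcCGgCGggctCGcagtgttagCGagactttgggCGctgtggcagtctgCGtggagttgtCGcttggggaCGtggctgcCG
The Nrg1 and Gm10060 sites had the highest H3K4me3 per kb of their classes and the Prkg1 site the second highest, leaving out 11 sites of unusual depth described below. The Nrg1 stretch held 46 CG and 80.0% GC and the Gm10060 stretch 35 CG and 69.7% GC, whereas the Prkg1 stretch held 13 CG and 45.7% GC. Strong sites of 1 class varied in this, for the cortex-only Ank3 site described below had at most 15 CpG in any 500 bp and the gastrocnemius-only Prkg1 site 18.

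Distal sites were shared between the tissues far less often than TSS-near sites. Of the 5521 distal sites, 1905 (34.5%) were called in all 19 libraries, compared with 11706 of 13757 TSS-near sites (85.1%). Another 572 distal sites (10.4%) were called in all 9 cortex and no gastrocnemius library, and 1267 (22.9%) in all 10 gastrocnemius and no cortex library. The corresponding TSS-near shares were 4.27% and 2.61%. With equally many peaks per library, 696 distal sites were cortex-only and 766 gastrocnemius-only, so the excess of the latter depended on the number of peaks called. The excess was wider without the lowest 25% of peak scores (137 and 651) and without libraries whose name carries a run number (611 and 2312). In between, 582 distal sites were complete in cortex and present in 1 to 9 gastrocnemius libraries, and 1195 were complete in gastrocnemius and present in 1 to 8 cortex libraries.

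**Figure D1:**
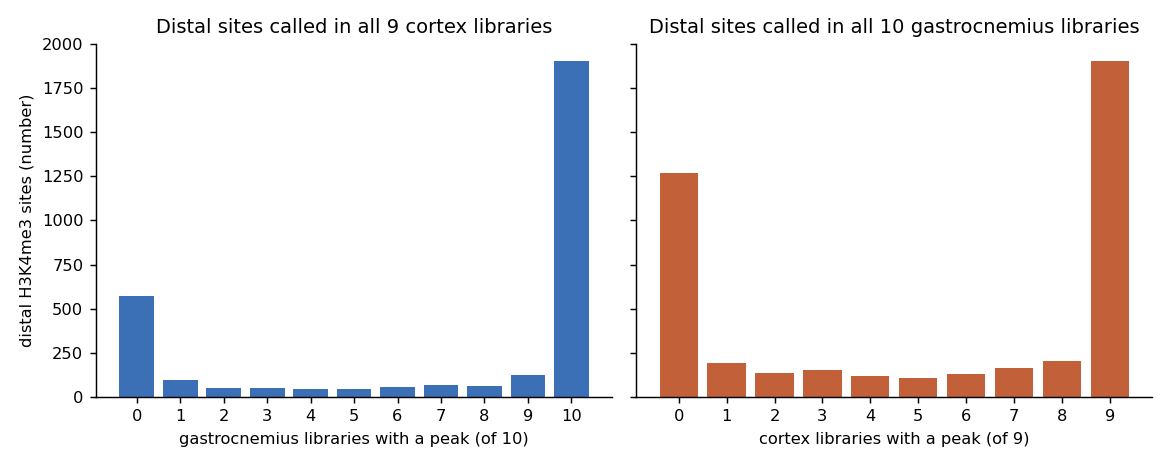
Number of distal H3K4me3 sites (y axis) by the number of libraries of the other tissue with a peak in them (x axis), for sites called in all 9 cortex libraries (left) and in all 10 gastrocnemius libraries (right). The columns at the ends hold most sites: 572 and 1905 on the left, 1267 and 1905 on the right.

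Distal sites carried less H3K4me3 than TSS-near sites. The median distal site had 3.03 RPM (reads at the site, scaled to the reads in all autosomal peaks of the library) per kb of site in cortex (quartiles 1.97 and 4.92, 3059 sites) and 2.59 RPM per kb in gastrocnemius (quartiles 1.88 and 3.91, 4367 sites). The TSS-near medians were 9.70 and 8.87 RPM per kb. Distal sites that were complete in a tissue held between 4.74% and 5.26% of the reads of each cortex library and between 6.24% and 8.10% of those of each gastrocnemius library, without the 11 sites of unusual depth described below. The replicates of a distal site also spread more, with a median coefficient of variation of 16.4% in cortex and 21.2% in gastrocnemius, against 6.09% and 9.14% at TSS-near sites. Among sites of 1 to 4 RPM per kb the gap was narrower, with 18.4% against 15.7% in cortex and 23.3% against 19.3% in gastrocnemius.

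The median distal site was 3600 bp wide and lay 28.6 kb from the nearest curated TSS, and 726 sites (13.1%) lay more than 100 kb away. Cortex-only sites were the narrowest and the most remote, with a median width of 2200 bp and a median distance of 44.1 kb. Gastrocnemius-only sites had a median width of 4200 bp and a median distance of 27.7 kb, and sites in all 19 libraries 4000 bp and 25.6 kb. Of all distal sites 2776 (50.3%) were intergenic, 1605 (29.1%) lay in an intron and 1140 (20.6%) touched an exon of a curated transcript. The intergenic share was highest for the sites of all 19 libraries (60.1%) and lowest for the gastrocnemius-only sites (34.6%), which lay in introns in 41.7% of cases.

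Many distal sites held a start that the curated set does not list. A TSS of a predicted RefSeq transcript (XM_ or XR_) or of GENCODE M21 lay inside 1816 of them (32.9%), and 3705 held neither. The share was 42.3% for the sites of all 19 libraries, 36.9% for cortex-only and 23.5% for gastrocnemius-only sites. When predicted TSSs were added to the rule, 3914 distal sites were left, and when GENCODE TSSs were added, an alternative chosen after seeing the data, 3317 were left.

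CpG content differed between the classes, which overlapped in it. A window of 500 bp with at least 50% GC and an observed over expected CpG of at least 0.6, the usual limits of a CpG island, was present in 881 of the 1905 distal sites of all 19 libraries (46.2%), in 96 cortex-only sites (16.8%) and in 52 gastrocnemius-only sites (4.10%). At TSS-near sites of the same classes the shares were 90.8%, 43.4% and 12.3%. The densest 500 bp of a site held a median of 23 CpG at distal sites of all 19 libraries, 17 at cortex-only and 14 at gastrocnemius-only sites. The order of the 3 classes in the island-like share was thus the same far from and near promoters. It was not for observed over expected CpG over the whole site. The distal medians of that ratio were 0.318 for all 19 libraries, 0.325 for cortex-only and 0.233 for gastrocnemius-only sites. The TSS-near medians were 0.387, 0.307 and 0.221. The part of site width in these measures was not tested. Among the distal sites of all 19 libraries, those with an island-like window carried 4.39 RPM per kb in cortex and 4.43 in gastrocnemius (medians), and those without it 2.42 and 3.31. Of the island-like sites 52.0% held a predicted or GENCODE TSS, and of the others 33.9%.

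**Figure D2:**
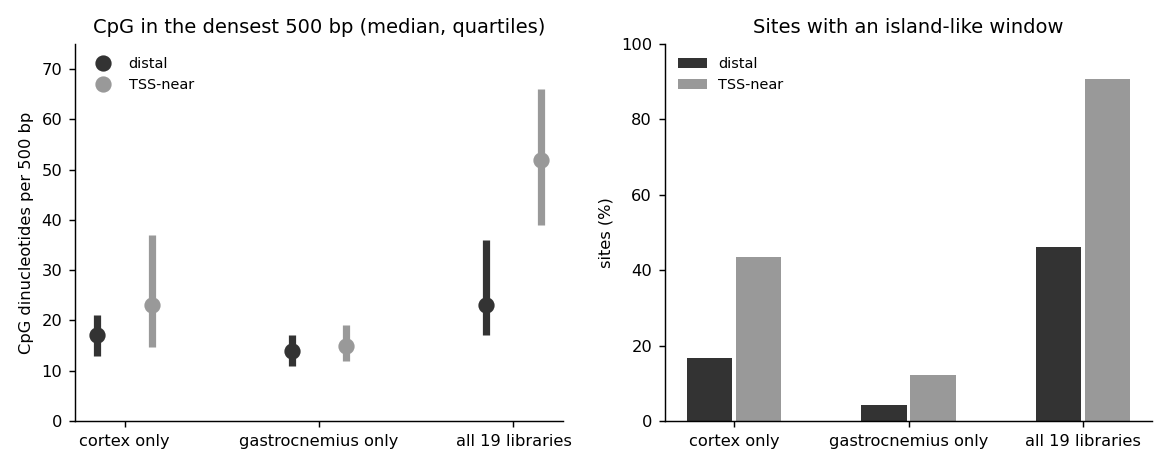
CpG dinucleotides in the densest 500 bp of a site (left, points are medians and bars span the quartiles) and percent of sites with an island-like window (right), for distal (dark) and TSS-near (light) sites by tissue class. Distal sites of all 19 libraries have a median of 23 CpG and gastrocnemius-only sites 14, and in each class the distal share of island-like sites is below the TSS-near one.

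Short motifs in the central 600 bp, searched on both strands and found without regard to overlap with each other, followed the CpG content in part. The GC box GGGCGG occurred in 35.1% of distal sites of all 19 libraries, 23.6% of cortex-only and 13.7% of gastrocnemius-only sites, and in 33.7% of all 19278 sites. The MEF2 pattern CTANNNNTA occurred in 38.8%, 41.3% and 48.8%, and in 40.2% of all sites. TSS-near sites of the same classes had similar shares of this pattern, at 38.8%, 43.9% and 49.6%. The E-box CAGCTG, which myogenic factors bind, differed little, at 34.0%, 34.1% and 35.3%, and 30.0% of all sites. The CTCF core AGGNGGCGC occurred in 4.62%, 2.80% and 0.947%, and the TATA pattern TATAAA in 21.7%, 29.7% and 28.8% (4.10% and 22.7% of all sites). The patterns GCGCNTGCG (NRF1), CCGGAAGT (ETS) and TGACGTCA (CRE) were each in under 4% of distal sites of any of these 3 classes. These are letter matches and show no binding.

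The 6 cortex-only sites with the highest H3K4me3 per kb had no H3K4me3 peak in any gastrocnemius library. The strongest was chr8:32880601-32886800, which lies 63.2 kb from the nearest curated TSS (Gm3985) and holds a GENCODE start of Nrg1, the gene of the ErbB ligand neuregulin 1. Its H3K4me3 ranged from 88.9 to 108 RPM in the 9 cortex libraries (median 101.1 RPM), and no gastrocnemius library had a peak. An intronic site of Ank3, the gene of ankyrin-G of the axon initial segment, at chr10:69704801-69713200, ranged from 85.8 to 137 RPM (median 116 RPM). An intronic site of Pde4d, which encodes a cAMP phosphodiesterase, at chr13:109114801-109119200, ranged from 48.4 to 67.7 RPM. A site 94.9 kb from Cntn3, a contactin gene, at chr6:102559601-102565200, ranged from 65.1 to 84.9 RPM. A site at the sialyltransferase gene St8sia3, at chr18:64264201-64271600, ranged from 86.4 to 108 RPM, and a site at Adgrb3, an adhesion G protein-coupled receptor gene of synapses, at chr1:25226001-25230000, from 41.1 to 55.8 RPM. The 6 sites had no peak in any gastrocnemius library, and the Nrg1, Ank3, Pde4d, St8sia3 and Adgrb3 sites held a GENCODE TSS of the named gene. The 2 widest cortex-only sites lay in Kalrn, a gene of dendritic spines (chr16:34251601-34264200, 59.6 to 129 RPM, median 93.9 RPM), and in Shank1, a postsynaptic scaffold gene (chr7:44333201-44343200, 29.0 to 45.5 RPM, median 38.7 RPM).

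The 6 gastrocnemius-only sites with the highest H3K4me3 per kb had no peak in a cortex library. The site near Svil, which encodes the actin-binding protein supervillin, at chr18:4992201-5004200, ranged from 98.0 to 187 RPM in the 10 gastrocnemius libraries (median 127 RPM). The site in Prkg1, a cGMP-dependent kinase gene, at chr19:30622401-30627200, ranged from 31.4 to 53.7 RPM (median 40.2 RPM), and its densest stretch is the sequence with 13 CG printed above. The site in Afdn, the gene of the junction protein afadin, at chr17:13873001-13882600, ranged from 55.2 to 87.1 RPM. The sites in C230072F16Rik (chr17:80930601-80935000, 18.6 to 37.8 RPM), in the acyl-CoA synthetase gene Acsl6 (chr11:54350001-54355400, 13.99 to 53.99 RPM) and in the alpha-kinase gene Alpk2 (chr18:65346001-65354400, 39.5 to 66.98 RPM) followed. None of the 6 had an island-like window, whereas 5 of the 6 cortex-only sites did. The 2 widest gastrocnemius-only sites spanned 29.6 kb of Capzb, which encodes an actin-capping subunit (chr4:139224601-139254200, 10.2 to 59.9 RPM), and 25.4 kb of Fmnl3 and Prpf40b (chr15:99313401-99338800, 23.9 to 58.4 RPM).

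**Figure D3:**
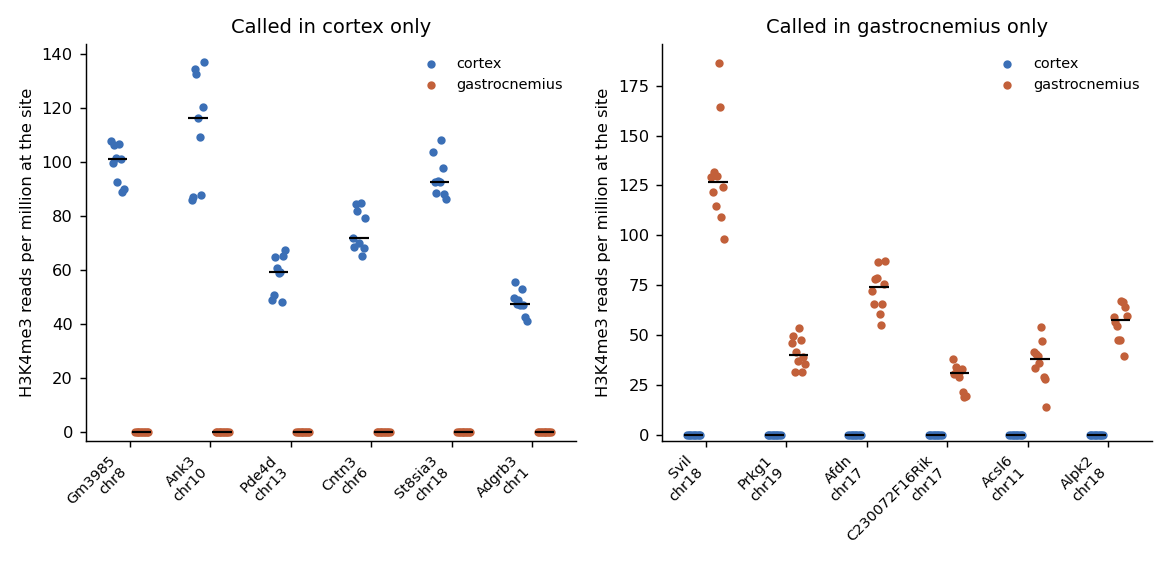
H3K4me3 in RPM (y axis) at the 6 cortex-only (left) and 6 gastrocnemius-only (right) distal sites with the highest H3K4me3 per kb, labelled by the host or nearest curated gene (Gm3985 is the Nrg1 site). Each point is a library and bars are medians, and the libraries of the other tissue are at 0 because they have no peak there.

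The sites of all 19 libraries with the highest H3K4me3 were mostly intergenic and CpG-rich. Leaving out the 11 sites of unusual depth, the strongest per kb, at chr8:19784201-19786200 with a GENCODE start of Gm10060, ranged from 72.8 to 124 RPM in cortex and from 69.5 to 131 RPM in gastrocnemius, so the tissues overlapped. The site at chr4:137386801-137390800, which holds a GENCODE start of 2810405F17Rik, ranged from 91.9 to 104 RPM and from 89.6 to 103 RPM. The sites at chr19:61199001-61200800 (51.1 to 62.0 and 49.0 to 64.2 RPM) and chr1:195241201-195243000 (37.2 to 45.4 and 38.1 to 53.0 RPM) also overlapped between the tissues. A site of 400 bp at chr3:5860401-5860800 ranged from 5.25 to 10.2 RPM in cortex and from 11.1 to 25.4 RPM in gastrocnemius. A site of 600 bp at chr17:13305801-13306400 differed from these in holding no CpG and 76.1% soft-masked repeat, and ranged from 10.8 to 19.7 and from 8.65 to 16.8 RPM. The sites of 400 and 600 bp had H3K27me3 in all libraries of both tissues. Its medians in cortex and gastrocnemius were 15.7 and 23.1 RPM at the former and 30.7 and 24.7 RPM at the latter. The H3K4me3 medians were lower, at 7.72 and 16.7 RPM and at 16.2 and 12.3 RPM. Neither site had H3K27ac in every library. The widest site of all, 48.4 kb beside the non-coding gene Lncppara at chr15:85643601-85692000, ranged from 366 to 439 RPM in cortex and from 500 to 592 RPM in gastrocnemius. The next widest spanned 44.2 kb of Ahdc1 at chr4:133033001-133077200, with 33.2 to 53.2 RPM in cortex and 127 to 201 RPM in gastrocnemius. Over the 1894 distal sites of all 19 libraries without unusual depth, the median log2 ratio of gastrocnemius to cortex H3K4me3 was 0.29 (quartiles -0.23 and 0.85), and over 11705 TSS-near sites it was 0.00 (quartiles -0.27 and 0.25).

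Another 11 distal sites, all called in all 19 libraries, exceeded a median of 23.4 H3K4me3 RPM per kb over the 19 libraries, the limit set for unusual depth, and were also called in every library of both other marks. They are listed apart. The deepest, at chr2:98666201-98667400, held from 2279 to 3498 H3K4me3 RPM in cortex and from 3129 to 5217 RPM in gastrocnemius, and its H3K27me3 ranged from 1955 to 9358 RPM over all libraries. All 3 marks were thus high in the same 1.2 kb of DNA, of which 79.8% was soft-masked repeat. The 11 sites together held between 0.552% and 0.806% of the H3K4me3 reads of a cortex library and between 0.863% and 1.49% of those of a gastrocnemius library.

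Genes of the 4 lists made up a small part of the distal sites, counted by host or nearest gene. The neuronal list (63 genes) held 19 cortex-only sites (3.32%, against 4.08% at TSS-near cortex-only sites), 5 gastrocnemius-only sites (0.395%, against 0.557%) and 18 sites of all 19 libraries (0.945%, against 0.419%). Besides Ank3, the strongest cortex-only sites of the list were at Nrxn3, a presynaptic adhesion gene (chr12:88722001-88729000, 41.3 to 103 RPM), and in Rbfox1, a neuronal splicing factor gene (chr16:6348001-6354000, 49.98 to 63.0 RPM). A site of all 19 libraries was found in Auts2, a neurodevelopmental gene (chr5:131531001-131539800, 110 to 148 RPM in cortex and 97.9 to 127 RPM in gastrocnemius). Another lay 30.85 kb from Snap25, a SNARE gene of synaptic vesicles (chr2:136677001-136682600, 31.0 to 36.2 and 35.6 to 47.5 RPM), and held a GENCODE start of Gm36967. The Snap25 TSS itself had an H3K4me3 peak within 1 kb in 9 cortex libraries and no gastrocnemius library. The muscle list (70 genes) held 11 gastrocnemius-only sites (0.868%, against 6.13% at TSS-near gastrocnemius-only sites), 3 cortex-only sites (0.524%, against 0.170%) and 8 sites of all 19 libraries (0.420%, against 0.393%). Among the gastrocnemius-only sites was a site 11.1 kb from Des, the gene of the intermediate filament desmin (chr1:75340601-75349200, 17.3 to 40.8 RPM). Esrrg, which encodes a nuclear receptor of oxidative metabolism, held 2 gastrocnemius-only intronic sites (9.70 to 21.8 and 6.55 to 13.4 RPM) and 1 cortex-only intronic site (chr1:188153401-188155400, 5.32 to 8.78 RPM). The glial list (27 genes) held 5 cortex-only sites (0.874%, against 0.510% at TSS-near cortex-only sites). The Slc1a2 site was intronic, and those counted for Aqp4, Olig1, Olig2 and Slc1a3 as the nearest gene were intergenic. The Aqp4 site lay 88.8 kb, the Slc1a3 site 80.4 kb and the Olig1 site 50.2 kb from the TSS. The list also held 1 gastrocnemius-only site (0.0789%, against 0.279%) and 3 sites of all 19 libraries (0.157%, against 0.145%). The imprinted list (38 genes) held 1, 5 and 6 sites (0.175%, 0.395% and 0.315%, against 0.340%, none and 0.256% at TSS-near sites), among them 2 gastrocnemius-only sites in Kcnq1 (chr7:143406801-143410200 and chr7:143425601-143429800) with H3K27me3 in all 9 cortex and no gastrocnemius library.

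At the limit of 5 kb the rule divides neighbours. The sites just inside it were at Aunip (5.002 kb, cortex-only, 4.06 to 9.48 RPM) and Aloxe3 (5.02 kb, 16.0 to 21.7 RPM in cortex) for cortex, and at Zdhhc23 (5.01 kb, 11.6 to 26.3 RPM) and Morn3 (5.02 kb, 8.60 to 16.7 RPM) for gastrocnemius. The sites just outside it were at D230017M19Rik (4.99 kb, 18.7 to 23.1 RPM in cortex and 16.0 to 23.8 RPM in gastrocnemius), Gm30173 (4.96 kb, 3.77 to 7.84 RPM in cortex) and Gm13522 (4.99 kb, 5.39 to 19.3 RPM in gastrocnemius).

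Distal sites with H3K4me3 in only 1 tissue had H3K27ac more often in that tissue, but many gastrocnemius-only sites also had it in cortex. In the cortex libraries 88.3% ± 8.80 (SD, n = 9) of the cortex-only sites had an H3K27ac peak, and in the gastrocnemius libraries 18.2% ± 2.66 (SD, n = 10). Of the gastrocnemius-only sites 63.7% ± 6.53 had one in cortex and 98.2% ± 0.559 in gastrocnemius. The tissues did not overlap in either class. TSS-near sites of the same classes showed the same split, with 88.8% ± 6.26 and 14.5% ± 1.82 of the cortex-only sites and 49.1% ± 4.41 and 97.9% ± 0.633 of the gastrocnemius-only sites in cortex and gastrocnemius. At the sites of all 19 libraries the shares were 94.5% ± 4.02 and 91.2% ± 2.24. Without cortex replicate 9, the library with few reads, the cortex shares were 91.1% ± 2.36, 65.7% ± 2.54 and 95.8% ± 0.806.

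**Figure D4:**
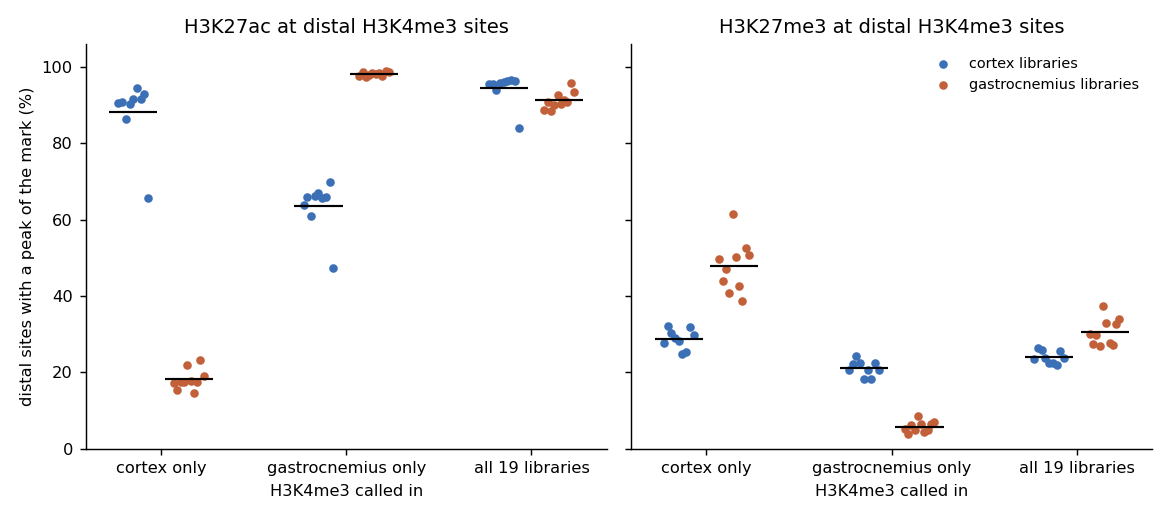
Percent of distal H3K4me3 sites with a peak of H3K27ac (left) or H3K27me3 (right), by the libraries in which H3K4me3 was called (x axis). Each point is a library of the other mark and bars are means, and the low H3K27ac point in cortex is replicate 9.

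Site by site, the number of libraries with an H3K27ac peak was compared between the tissues with a two-sided Fisher's exact test, adjusted over all 19278 sites. At an FDR under 0.1, 760 distal sites (13.8%) were called more often in cortex and 593 (10.7%) more often in gastrocnemius, compared with 10.4% and 4.95% of all sites tested. Of the cortex-only sites 415 of 572 (72.6%) were called more often in cortex and 2 in gastrocnemius, compared with 76.0% of the TSS-near cortex-only sites called more often in cortex. Of the gastrocnemius-only sites 423 of 1267 (33.4%) were called more often in gastrocnemius and 1 in cortex, compared with 50.7% of the TSS-near gastrocnemius-only sites called more often in gastrocnemius. The sites of all 19 libraries gave 86 (4.51%) and 23 (1.21%), compared with 3.44% and 0.760% of the TSS-near sites of all 19 libraries, and so lay below the shares of all sites. With the mouse as a block (exact McNemar test over the 9 mice that gave both tissues), 533 (9.65%) and 366 (6.63%) distal sites passed, compared with 7.66% and 3.08% of all sites. The smallest p of the exact McNemar test with 9 mice is 0.0039, which limits the sites that can pass, so these counts do not show whether pairing weakens the result. Without cortex replicate 9 the counts were 773 and 534 (10.5% and 4.44% of all sites). The majority of distal calls turned to gastrocnemius with equally many peaks per library (731 and 946, with 10.2% and 7.68% of all sites) and where peaks had to cover 50% of the site (818 and 935, with 2360 and 2304 of all 19278 sites).

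Of the 6 strongest sites of each class, 5 cortex-only sites (all but Ank3) and 3 gastrocnemius-only sites (Prkg1, C230072F16Rik and Alpk2) passed for H3K27ac. At the Nrg1 site H3K27ac ranged from 24.0 to 32.4 RPM in cortex and no gastrocnemius library had a peak (adjusted p = 0.00014, Fisher's exact test). At the Alpk2 site it ranged from 23.4 to 37.2 RPM in gastrocnemius and no cortex library had a peak (adjusted p = 0.00014, Fisher's exact test). The Svil site had H3K27ac in 7 of 9 cortex and the Acsl6 site in 9 of 9 cortex libraries besides all 10 gastrocnemius libraries (adjusted p = 1.0 for both, Fisher's exact test), the Afdn site in 6 of 9 cortex libraries (adjusted p = 0.46, Fisher's exact test), and the Ank3 site in 5 of 10 gastrocnemius libraries besides all 9 cortex libraries (adjusted p = 0.19, Fisher's exact test). The Capzb site likewise had H3K27ac in every library of both tissues, from 104 to 131 RPM in cortex and from 136 to 175 RPM in gastrocnemius. In reads assigned to the site, the Acsl6 and Capzb sites were higher in gastrocnemius, by a log2 ratio of gastrocnemius to cortex of 1.01 ± 0.0969 at the Acsl6 site (SE, adjusted p = 1.1e-09, edgeR) and of 0.52 ± 0.0570 at the Capzb site (adjusted p = 1.2e-08, edgeR).

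Reads were compared over H3K27ac regions that all 19 libraries had called, with edgeR's quasi-likelihood test. The 12829 regions were wide (median 18.6 kb), and 2664 of them overlapped a distal site (median 30.7 kb). Of these, 940 (35.3%) were higher in cortex and 1348 (50.6%) higher in gastrocnemius at an FDR under 0.1, compared with 41.0% and 39.8% of all regions tested. A sum over a region moves with the length called in it, which had a median of 14.01 kb in cortex and 20.6 kb in gastrocnemius over the 2664 regions. Of the 1401 of them that were themselves over 5 kb from a TSS, 562 (40.1%) and 601 (42.9%) passed, close to the shares of all regions. When reads were divided by the called length, 1380 and 437 of the 2664 passed, so the direction of the majority depended on that scaling, under which the median of all regions was -0.32 on the log2 scale and 64.2% and 8.01% of all regions passed. When the reads were assigned to each H3K4me3 site by overlap, an alternative chosen after seeing the data, 2834 distal sites could be tested and 875 (30.9%) were higher in cortex and 1321 (46.6%) in gastrocnemius, compared with 35.3% and 34.7% of all 13724 sites tested. The gastrocnemius-only sites gave 38 (6.93%) and 436 (79.6%) of 548, the sites of all 19 libraries 567 (41.0%) and 471 (34.0%) of 1384, and the cortex-only sites 41 and 4 of 49.

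The largest read differences towards cortex were at a region of Adgrb1, a brain adhesion receptor gene, at chr15:74508801-74552400. It held 327 ± 23.7 CPM, that is reads scaled to the effective library size, in cortex and 7.46 ± 2.06 in gastrocnemius (SD, n = 9 and 10), a log2 difference of -5.44 ± 0.126 (SE, adjusted p = 5.05e-19, edgeR). A region at F730035M05Rik and Pygl, the latter a glycogen phosphorylase gene (chr12:70231201-70320000), differed by -5.22 ± 0.140 and a region in Msra, a methionine sulfoxide reductase gene (chr14:64296001-64427400), by -4.87 ± 0.248. These regions are much wider than the H3K4me3 sites in them, and much more of them was called in cortex, at Adgrb1 41.9 kb ± 0.906 against 3.6 kb ± 1.296 (SD), at F730035M05Rik 78.7 against 3.02 kb and at Msra 119 against 8.84 kb. Per called length the differences were -1.89, -0.43 and -1.06. Over the Msra site alone (chr14:64309001-64311200, gastrocnemius-only) the difference was -1.01 ± 0.0951, and over the F730035M05Rik site (chr12:70233001-70236200) it was -0.14 ± 0.103 and did not pass (adjusted p = 0.22, edgeR). Towards gastrocnemius the largest were a region at 3425401B19Rik (chr14:32654001-32712200, 5.66 ± 0.164), a region in Cped1 (chr6:21975001-22105600, 4.43 ± 0.0760) and a region at Klhl31, a muscle kelch gene (chr9:77609201-77668600, 4.41 ± 0.136). Over the H3K4me3 sites alone the difference was 0.85 ± 0.126 at the Cped1 site with H3K27ac in both tissues (chr6:22069001-22074400) and 1.52 ± 0.179 at the Klhl31 site (chr9:77648801-77658200). The length called in cortex and gastrocnemius was 2.47 and 54.3 kb at 3425401B19Rik, 5.56 and 116 kb at Cped1 and 1.24 and 51.6 kb at Klhl31. Per called length the difference was 1.19 at 3425401B19Rik, 0.03 at Cped1, where it did not pass, and turned to -1.01 at Klhl31. All 6 differences were thus smaller per called length or turned.

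H3K27me3 showed the opposite pattern at tissue-restricted sites. Of the cortex-only sites 28.8% ± 2.61 (SD, n = 9) had an H3K27me3 peak in the cortex libraries and 47.8% ± 6.68 (SD, n = 10) in the gastrocnemius libraries. The highest gastrocnemius share, 61.5%, was that of replicate 5, the library with the most reads (others 38.8% to 52.6%). Of the gastrocnemius-only sites 21.1% ± 2.01 had one in cortex and 5.79% ± 1.38 in gastrocnemius. The mark was thus more frequent in the tissue without H3K4me3 in both classes, with no overlap between the libraries. TSS-near sites had the same order at higher shares, with 44.99% ± 2.54 and 64.5% ± 6.97 of the cortex-only sites and 38.1% ± 2.57 and 11.9% ± 2.61 of the gastrocnemius-only sites in cortex and gastrocnemius. At the sites of all 19 libraries the shares were 24.0% ± 1.63 and 30.6% ± 3.53. At 99 cortex-only sites (17.3%, against 12.7% of all 19278 sites and 32.3% of TSS-near cortex-only sites) H3K27ac was in all 9 cortex libraries and H3K27me3 in all 10 gastrocnemius libraries. At 104 gastrocnemius-only sites (8.21%, against 9.11% of all sites and 21.2% of TSS-near gastrocnemius-only sites) H3K27ac was in all 10 gastrocnemius libraries and H3K27me3 in all 9 cortex libraries, so this share was not above that of all sites, and both distal shares lay below the TSS-near ones.

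By Fisher's exact test, 420 distal sites (7.61%) had H3K27me3 more often in cortex and 423 (7.66%) more often in gastrocnemius, compared with 5.48% and 8.02% of all sites. Of the cortex-only sites 91 (15.9%) were called more often in gastrocnemius and 8 in cortex, and of the gastrocnemius-only sites 181 (14.3%) more often in cortex and 7 in gastrocnemius. The TSS-near shares in the same directions were 16.8% and 24.8%. With the mouse as a block 126 (2.28%) and 101 (1.83%) distal sites passed, compared with 1.76% and 2.43% of all sites (exact McNemar test, with the limit on its smallest p given above). More distal sites passed for gastrocnemius than for cortex with equally many peaks per library (328 and 424, with 4.54% and 8.38% of all sites), with 50% cover (320 and 425, with 3.79% and 7.44%) and without the lowest 25% of peak scores (353 and 392, with 4.98% and 7.78%). Over the 802 H3K27me3 regions of all 19 libraries that overlapped a distal site, 277 (34.5%) were higher in cortex and 320 (39.9%) in gastrocnemius, compared with 31.9% and 34.8% of all 4683 regions (edgeR). The direction of the majority turned in the 291 of them over 5 kb from a TSS, of which 107 (36.8%) were higher in cortex and 88 (30.2%) in gastrocnemius. Per called length 33 and 35 of the 802 passed, and 2.16% and 1.56% of all regions. With reads assigned to each H3K4me3 site, also chosen after seeing the data, 102 (27.3%) and 120 (32.2%) of 373 distal sites passed, compared with 32.8% and 32.1% of all 1827 sites tested, so the distal shares were not above those of all sites for cortex and were near them for gastrocnemius.

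Among the sites with the highest H3K4me3 that passed for H3K27me3, a site beside Exoc2, an exocyst gene (chr13:30984201-30988800), had H3K4me3 of 10.1 to 19.1 RPM in cortex and 49.9 to 67.4 RPM in gastrocnemius, and H3K27me3 in all 9 cortex and no gastrocnemius library. Sites at Arhgef3 (chr14:27112801-27116800), and at Mir155hg, the host gene of miR-155 (chr16:84701801-84706000), had the same H3K27me3 calls. In the other direction, an intronic site of the sodium channel gene Scn1a (chr2:66406401-66411000) had H3K27me3 in all 10 gastrocnemius and 1 of 9 cortex libraries. A site near Fat1, an atypical cadherin gene (chr8:44933401-44941000), had it in 7 of 10 gastrocnemius and no cortex library, and the site at chr19:61199001-61200800 in 10 and 2. The Nrg1 and Shank1 sites carried H3K27me3 in all libraries of both tissues beside H3K4me3 and H3K27ac in cortex.

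H3K27me3 calls are given by CpG content as a description, without a test, beside 16.8% of all 19278 sites with the mark in every gastrocnemius library and 15.2% with it in every cortex library. Of the 96 cortex-only distal sites with an island-like window, 51 (53.1%) had H3K27me3 in all 10 gastrocnemius libraries, and of the 476 without it 98 (20.6%). TSS-near cortex-only sites had the same order, with 67.1% and 25.2%. Of the gastrocnemius-only distal sites 30.8% of the 52 island-like and 8.48% of the other 1215 had the mark in all 9 cortex libraries, and of the TSS-near ones 47.7% and 20.3%. At the sites of all 19 libraries the shares with the mark in every gastrocnemius library were 24.3% and 9.86% for distal and 15.7% and 8.61% for TSS-near sites. In every cortex library they were 18.8% and 10.1% for distal and 13.2% and 14.6% for TSS-near sites, so the TSS-near order was the opposite there.

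Within a library, the share of distal sites with a mark was compared with that of TSS-near sites complete in the same tissue by an exact two-sided sign-flip permutation test, with each p adjusted over 4 tests. H3K27ac lay on 92.4% ± 5.51 of distal sites in cortex, a gap of -4.68 ± 3.797 percentage points (SD) to the TSS-near share in the same libraries (lower in 9 of 9, exact p = 0.0039). In gastrocnemius it lay on 94.4% ± 1.42, a gap of -0.859 ± 0.518 points (lower in 9 of 10, exact p = 0.0039). H3K27me3 lay on 26.4% ± 1.94 of distal sites in cortex, a gap of 3.11 ± 1.23 points (higher in 9 of 9, exact p = 0.0039), and on 18.9% ± 2.53 in gastrocnemius, a gap of -6.04 ± 1.02 points (lower in 10 of 10, exact p = 0.0039). The smallest unadjusted p this design allows is 0.0039 with 9 libraries and 0.0020 with 10.

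**Figure D5:**
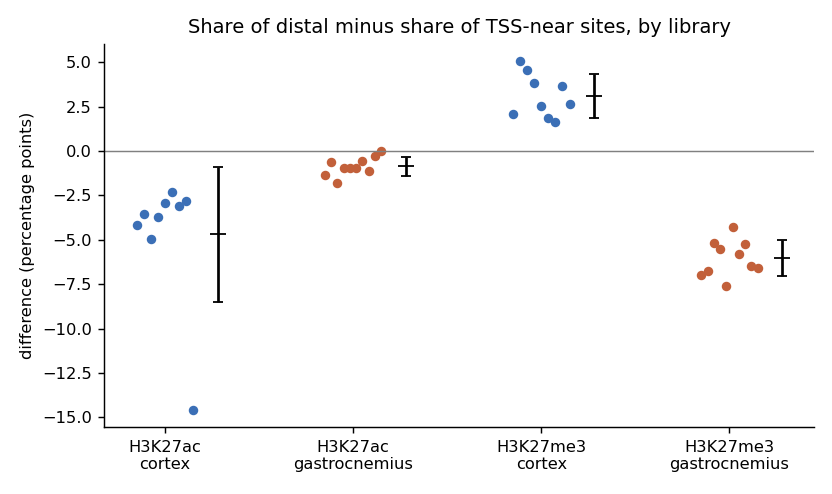
Percent of distal sites minus percent of TSS-near sites with a peak of the mark (y axis, percentage points) in each cortex (blue) and gastrocnemius (orange) library. Bars to the right of the points are mean ± SD, and the low H3K27ac point in cortex is replicate 9 at -14.6.

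The gaps differed between the tissues, by -3.83 points for H3K27ac and by 9.15 points for H3K27me3 (exact p = 1.1e-05 for each, two-sided permutation over 92378 relabellings, the smallest p possible). These gaps depended on site width, which had a median of 3600 bp for distal and 6200 bp for TSS-near sites. Within classes of the same width, the H3K27ac gap was 4.20 points in cortex and 3.801 points in gastrocnemius, and the tissue difference was 0.397 points (exact permutation p = 0.43). Within those classes the H3K27me3 gap was -3.48 points in cortex and -8.44 points in gastrocnemius, and the tissue difference of 4.95 points remained past the threshold (exact permutation p = 1.1e-05). With equally many peaks per library the H3K27ac gap was -9.36 points in cortex and -1.65 in gastrocnemius, and without the lowest 25% of peak scores -8.90 and -3.11. Where peaks had to cover 50% of the site it was -0.566 in cortex (exact permutation p = 0.52) and turned to 2.20 in gastrocnemius. Over the central 600 bp it was -3.13 and 0.642. The H3K27me3 gap in gastrocnemius was -1.998 points where peaks had to cover 50% of the site and -2.43 over the central 600 bp, and the cortex gaps were then 5.41 and 4.97.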

How the data were processed

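ChIP-seq libraries of H3K4me3, H3K27ac and H3K27me3 were analysed from the peak lists that the authors deposited for each of the 57 libraries. Per the labels and the study's methods, alignment by the authors used BWA and mm10, SAMtools removed low-quality and duplicate reads, and epic2 (version and use of an input not stated) called peaks per library. The deposited read counts are the whole numbers of reads that epic2 assigned to each peak, not normalized, and the deposited score of a peak is that of epic2 and was used only to rank peaks. Reads outside peaks are not used here, so a library without a peak counts as 0 at a site, and RPM are relative to the reads in autosomal peaks. Counts are of reads without molecular identifiers, so errors given are spreads between libraries, and replicates are separate mice.

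The members, gene lists and motifs were chosen with earlier results of these data known. Sites were merged over at least 1 shared bp, with Python 3.11.15, NumPy 2.4.6, SciPy 1.17.1 and pandas 2.3.3, using RefSeq and GENCODE M21 on GRCm38.p6, which is mm10 on these chromosomes. Reads of a peak that reaches beyond a site were shared by overlap. Groups came from sample titles and the mouse of each library from the deposited names. H3K27ac and H3K27me3 calls were compared with Fisher's exact test and reads with edgeR 4.0.16 (R 4.3.3, TMM, Benjamini-Hochberg adjustment, no block), with DESeq2 1.42.0 as an alternative. The exact tests and the edgeR fit were tested on simulated data. Sites named are the 6 with the highest H3K4me3 per kb and the 2 widest of each class, those nearest the 5 kb limit, the 3 largest H3K27ac read differences per direction, up to 3 sites per direction with different H3K27me3 calls and up to 3 sites per gene list and class, of which examples are given. The fits with GENCODE TSSs, without sites of unusual depth, with reads per site and, for Fisher's test, without cortex replicate 9 were chosen after seeing the data. The mouse pairs the tissues. Deviations of the same mouse correlated across the 1894 shared distal sites at a median of 0.096 for H3K4me3 (-0.0098 to 0.19 over 9 mice), and those of different mice at -0.0042.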

Additional observations from a re-analysis of the deposited data

Results flagged for a closer look

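Cortex replicate 9 of H3K27ac stood apart from the other 8 cortex libraries in 6 measures, and it also had the fewest reads of that mark (3903965). It had H3K27ac on 78.1% of distal sites (others 91.5% to 95.6%) and on 92.7% of TSS-near sites (others 96.5% to 97.9%), so that its gap was -14.6 percentage points (others -4.97 to -2.33). By class it had H3K27ac on 65.6% of cortex-only sites (others 86.4% to 94.6%), 47.4% of gastrocnemius-only sites (others 60.9% to 69.9%) and 83.9% of sites of all 19 libraries (others 94.0% to 96.5%). The part of depth in this was not tested. For H3K4me3, cortex replicate 2 was high at the chr4:137386801-137390800 site near Cela3a, with 104 RPM (others 91.9 to 97.8), and cortex replicate 1 low at the Lncppara site, with 366 RPM (others 403 to 439). In all, 58 groups of libraries were examined and 8 held such a library, and chance alone marks about 1 group in 20.

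The gap between distal and TSS-near shares differed between the tissues for both marks, by -3.83 percentage points for H3K27ac and by 9.15 for H3K27me3 (cortex minus gastrocnemius, adjusted exact permutation p = 1.1e-05 each). Within classes of equal site width the former was 0.397 (exact permutation p = 0.43).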

How the results depend on the processing

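The number of distal sites depended on the rule. It was 3486 beyond 20 kb (gastrocnemius-only 790, all 19 libraries 1134), 2561 without the lowest 25% of scores (cortex-only 137, gastrocnemius-only 651, all 19 libraries 833) and 1405 where peaks had to cover 50% of the site (289, 335 and 171). GENCODE TSSs, added after seeing the data, left 3317 (343, 829 and 998). Gastrocnemius-only sites numbered 766 with equally many peaks per library (cortex-only 696) and 2312 without libraries whose name carries a run number, and 1199 sites of all 19 libraries were left with predicted TSSs. Within width classes the H3K27ac gap turned to 4.20 in cortex and 3.801 in gastrocnemius and its tissue difference to 0.397, and the H3K27me3 gap in cortex turned to -3.48. With 50% cover the H3K27ac gap was -0.566 in cortex (exact permutation p = 0.52) and turned to 2.20 in gastrocnemius, and over the central 600 bp the latter was 0.642. The causes were not tested. H3K27ac calls higher in gastrocnemius numbered 935 with 50% cover (cortex 818), 946 with equally many peaks (cortex 731) and 366 with the replicate block, which gave 126 and 101 for H3K27me3. Without run-numbered libraries H3K27me3 gave 265 and 216. Per called length, reads gave 437 regions higher in gastrocnemius for H3K27ac and 33 and 35 for H3K27me3, the Klhl31 region turned to -1.01, and by site H3K27me3 gave 102 and 120 (27.3% and 32.2% of 373 distal sites, against 32.8% and 32.1% of all 1827 sites). The replicate block moved no other call past these limits (tissue differences -3.84 and 8.97). Leaving out each library in turn left the H3K27ac tissue difference between -4.12 and -2.59, the latter without cortex replicate 9, and the H3K27me3 one between 8.90 and 9.34. DESeq2 gave 933 and 1370 H3K27ac regions and 290 and 306 H3K27me3 regions.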
